A study of Mus musculus with 2 samples.

Results

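The genes described here are 9 members of the Ifi200 locus of mouse chromosome 1: Ifi203, Ifi204, Ifi205, Ifi207, Ifi209, Ifi211, Ifi213, Mndal and Aim2. They were found as the rows of the deposited tables that carry one of these symbols, and they are 9 of the 32285 genes listed. The choice rested on the values themselves, since members had been seen to differ in opposite directions between the 2 libraries. Differences between the libraries in these genes are therefore given as descriptions, with no test.

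The study made 2 droplet single-cell RNA libraries from brain, 1 per group. The library called WT here came from C57BL/6J wild-type mice and the library called KO from CD200R1-/- mice, which lack an inhibitory receptor of myeloid cells. All mice were 18 months old and untreated, were perfused before dissociation of the brain, and had their cells enriched with magnetic particles for CD11b, a surface protein of myeloid cells. The labels name no disease model, do not give the number of mice behind a library, and do not say whether cells of several mice were pooled. The strain background of the CD200R1-/- mice is not stated separately, and the deletion is not described as limited to any cell type.

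The Ifi200 genes encode PYHIN proteins, most of which join a pyrin domain, used for protein assembly, to a HIN domain that binds DNA. AIM2 senses DNA in the cytosol and assembles an inflammasome with the adaptor ASC (gene Pycard) and caspase-1. IFI204 has been tied to cytosolic DNA sensing through STING, and several other members act on transcription in the nucleus. The family is known for induction by interferon, in macrophages above all, and the number of genes differs between species and between mouse strains.

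The members lie within 680932 bp of chromosome 1 (GRCm38, GENCODE vM21, 1-based). From the left end these are Aim2 (173350879-173466040, plus strand), Ifi213 (173566283-173599274, minus), Ifi209 (173630917-173647928, plus), Ifi207 (173723427-173741747, minus) and Ifi204 (173747293-173766943, minus). Further right are Mndal (173849126-173942491, minus), Ifi211 (173896345-173913046, minus), Ifi203 (173920407-173942672, minus) and Ifi205 (174011998-174031810, minus). All are annotated as protein-coding. The tables hold 4 other PYHIN genes of the locus, Ifi202b, Ifi206, Ifi208 and Ifi214. The model of Mndal overlaps those of Ifi211 and Ifi203 on the same strand, so reads of these genes may have been divided between them in a way the sources used here do not state.

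The upstream sequences below are shown because some members share sequence before their starts. Whether the shared run marked here goes with how members differed between the libraries was not tested. Ifi203, Mndal, Ifi213 and Ifi211 have it and were lower in KO endothelial-like cells, described below, as was Ifi207, which lacks it. Ifi209 and Aim2 lack it too, and were higher and within the fold there. Ifi205 has the run but had too few UMIs there. In KO microglia-like cells Ifi207 and Ifi209 were higher, as were the members with the run. Each is the 250 bases before an annotated start (RefSeq, GRCm38.p6), read 5′ to 3′ on the gene's strand. Capitals mark GAAAGCTATGAAC, the longest run of bases found in the windows of at least 4 members. The windows are chr1:173942493-173942742 for the second of 2 listed starts of Ifi203 and chr1:173880188-173880437 for the first of 2 listed starts of Mndal, both on the minus strand. Those of Ifi213, Ifi211 and Ifi207 are chr1:173599273-173599522, chr1:173913047-173913296 and chr1:173741810-173742059, all minus. Those of Ifi209 and Aim2 are chr1:173630609-173630858 and chr1:173420354-173420603, both plus.
Ifi203: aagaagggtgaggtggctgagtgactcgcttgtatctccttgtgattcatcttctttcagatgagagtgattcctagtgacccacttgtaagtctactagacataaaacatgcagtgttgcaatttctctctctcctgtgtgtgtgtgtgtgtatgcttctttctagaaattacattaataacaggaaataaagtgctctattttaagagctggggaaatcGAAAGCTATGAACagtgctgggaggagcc
Mndal: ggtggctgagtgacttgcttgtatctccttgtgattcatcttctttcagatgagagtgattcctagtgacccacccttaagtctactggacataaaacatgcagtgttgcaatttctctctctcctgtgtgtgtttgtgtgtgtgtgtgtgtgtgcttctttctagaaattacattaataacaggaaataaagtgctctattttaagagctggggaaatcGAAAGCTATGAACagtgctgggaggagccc
Ifi213: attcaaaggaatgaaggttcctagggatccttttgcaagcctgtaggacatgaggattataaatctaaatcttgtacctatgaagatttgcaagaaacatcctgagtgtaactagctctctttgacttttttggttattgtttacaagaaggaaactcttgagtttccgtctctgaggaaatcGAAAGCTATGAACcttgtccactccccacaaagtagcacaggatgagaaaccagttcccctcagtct
Ifi211: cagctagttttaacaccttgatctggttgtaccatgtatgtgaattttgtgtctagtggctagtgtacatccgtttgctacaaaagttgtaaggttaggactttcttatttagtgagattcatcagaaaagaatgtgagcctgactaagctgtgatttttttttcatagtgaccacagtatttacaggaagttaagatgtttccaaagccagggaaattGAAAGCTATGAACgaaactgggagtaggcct
Ifi207: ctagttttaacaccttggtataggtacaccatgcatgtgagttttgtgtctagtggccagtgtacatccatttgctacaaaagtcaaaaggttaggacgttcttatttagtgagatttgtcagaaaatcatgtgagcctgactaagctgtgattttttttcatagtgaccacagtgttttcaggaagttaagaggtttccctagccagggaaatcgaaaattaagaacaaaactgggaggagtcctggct
Ifi209: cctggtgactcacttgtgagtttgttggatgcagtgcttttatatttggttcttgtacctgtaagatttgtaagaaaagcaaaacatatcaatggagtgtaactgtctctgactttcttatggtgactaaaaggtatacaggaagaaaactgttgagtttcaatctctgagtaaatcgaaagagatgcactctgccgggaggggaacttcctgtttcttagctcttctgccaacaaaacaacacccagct
Aim2: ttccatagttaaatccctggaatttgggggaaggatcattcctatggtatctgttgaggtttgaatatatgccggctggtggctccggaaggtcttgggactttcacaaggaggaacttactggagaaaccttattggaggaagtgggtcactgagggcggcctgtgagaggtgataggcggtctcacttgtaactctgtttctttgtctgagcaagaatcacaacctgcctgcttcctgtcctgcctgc

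The run of 13 bases was found in 5 of the 8 members with an entry in the RefSeq table: Ifi203, Mndal, Ifi213, Ifi211 and Ifi205. Searched on both strands, it occurred in the same window of 7 of all 32851 promoters (0.0213%), these 5 genes included. It began at -29 in Ifi203, -30 in Mndal, -31 in Ifi211, -67 in Ifi213 and -128 in Ifi205, counted from the annotated start. The whole run was not found in the windows of Ifi207, Ifi209 and Aim2, nor at the other listed starts of Ifi203 and Mndal, and Ifi204 had no entry. The run was taken from these sequences themselves, so its presence in members is a description and does not show that a factor binds. Aligned end to end, the 300-base promoters of Mndal and Ifi203 were 90.7% identical and those of Ifi207 and Ifi211 85.9%. The next closest pair by this measure, Ifi213 and Ifi209, reached 57.5%. The windows are set on annotated starts, so like sequence at another distance from the start can be missed. Ifi211 and Ifi205 scored 47.6%, though their windows also share long stretches before the run, which lies at -31 and -128.

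Sequence shared between transcripts matters for the counts, because a read that fits 2 genes may be dropped or assigned to one of them. Among 90-base stretches of the last 500 bases of annotated transcripts, where 3′ reads fall, 59.4% of those of Ifi211 and 29.7% of those of Ifi205 also occurred in another gene, for both mainly in each other. The share was 37.1% for Ifi209 (mainly with Ifi214), 9.33% for Mndal, 7.54% for Ifi213 (mainly with Ifi208) and 1.05% for Ifi203. No such stretch was found for Ifi204, Ifi207 or Aim2. Levels of Ifi211, Ifi205 and Ifi209 are thus uncertain as measurements of 1 gene.

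The WT and KO libraries held 18228 and 19159 barcodes with 127429919 and 131196245 UMIs, that is, distinct RNA molecules counted. After the filters, 16601 and 17659 cells remained, with medians of 4096 and 4244 UMIs, and 97 and 92 of them carried a barcode found in both libraries. Each cell was placed in a class where at least 3 marker genes of the class were detected and at least 0.7 of its marker UMIs were from that class. The rule is a range on a score and not a cell type, so classes are called microglia-like and so on. It left 47.3% and 46.5% of cells unassigned, with medians of 1333 and 1454.5 UMIs. Microglia-like cells numbered 3458 and 4051, of which 1530 and 1720 had a share of 0.7 to 0.8, and 840 and 878 more cells lay just outside, at 0.6 to 0.7. Endothelial-like cells numbered 3383 and 3270, with 711 and 744 just inside and 426 and 528 just outside. Microglia-like cells held medians of 59 and 51 microglial marker UMIs and of at most 3 UMIs of any other class's list. Endothelial-like cells held 123 and 103 endothelial marker UMIs and at most 5 of any other list. Endothelial-like and mural-like cells, at which the CD11b selection was not aimed, were among the largest classes. Transcripts of Cd200r1, the targeted gene, were counted at 902 and 907 UMIs in microglia-like cells. The deleted exons are not given and 3′ reads may lie outside them, so this does not check the labels.

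Expression of the locus was divided among cell classes, member by member, and orders are among the 8 classes compared, without the small monocyte-like and B cell-like classes. Levels are in UMIs per 1000000 UMIs of the class (CPM), and brackets give 95% Poisson intervals, which cover counting error only. Aim2, the inflammasome sensor, was highest in microglia-like cells in both libraries, at 192 CPM (187 to 196) and 190.5 CPM (186 to 195). T cell-like cells were next, at 120 CPM (90.6 to 157) and 110 CPM (77.9 to 151), and ependymal-like cells were last, at 5.95 and 1.82 CPM. Microglia-like cells held 58.8% and 61.1% of all Aim2 UMIs, against 32.3% and 34.8% of all UMIs.

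Ifi203 and Mndal, which encode nuclear PYHIN proteins, had another distribution and were low in microglia-like cells. In the WT library Ifi203 reached 267 CPM (236 to 301) in CNS-associated macrophage-like cells, 258 CPM (214 to 309) in T cell-like cells and 196 CPM (191 to 201) in endothelial-like cells. The first and second of these overlap within counting error. Mural-like cells had 67.6 CPM, and microglia-like cells 2.79 CPM, close to the 2.78 CPM of ependymal-like cells. Mndal followed the same order apart from its top places, with 315 CPM (266 to 371) in T cell-like, 209 CPM (203 to 214) in endothelial-like and 197 CPM (170 to 226) in macrophage-like cells, and the last 2 overlap. Endothelial-like cells held 60.1% of the Ifi203 UMIs and 60.1% of the Mndal UMIs in the WT library, but 32.9% and 34.4% in the KO library.

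The macrophage-like class, made up of cells with markers of perivascular and meningeal macrophages, led for most of the others. Ifi207 stood at 673 CPM (623 to 726) there in the WT library, against 26.8 CPM in neutrophil-like cells, the next of the 8 classes, and 279 CPM (198 to 383) in the 18 monocyte-like cells. For Ifi204 the values were 228 CPM (199 to 260) and 40.8 CPM (31.5 to 52.2) in the same 2 classes. Ifi211 had 83.0 CPM and Ifi213 74.0 CPM in macrophage-like cells, each followed by endothelial-like cells at 13.3 and 31.7 CPM. Among the 8 classes Ifi209 was led by T cell-like cells at 74.4 CPM (51.5 to 104), ahead of macrophage-like cells at 36.0 CPM (25.2 to 49.8). Outside the 8, it had 120 CPM (93.2 to 152) in B cell-like and 110 CPM (61.7 to 182) in monocyte-like cells of the WT library. Ifi205 was scarce, with 310 and 507 UMIs over all kept cells, and 79.7% of them in each library were in unassigned cells. Macrophage-like cells numbered only 152 and 179 and T cell-like cells 69 and 79.

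**Figure D1:**
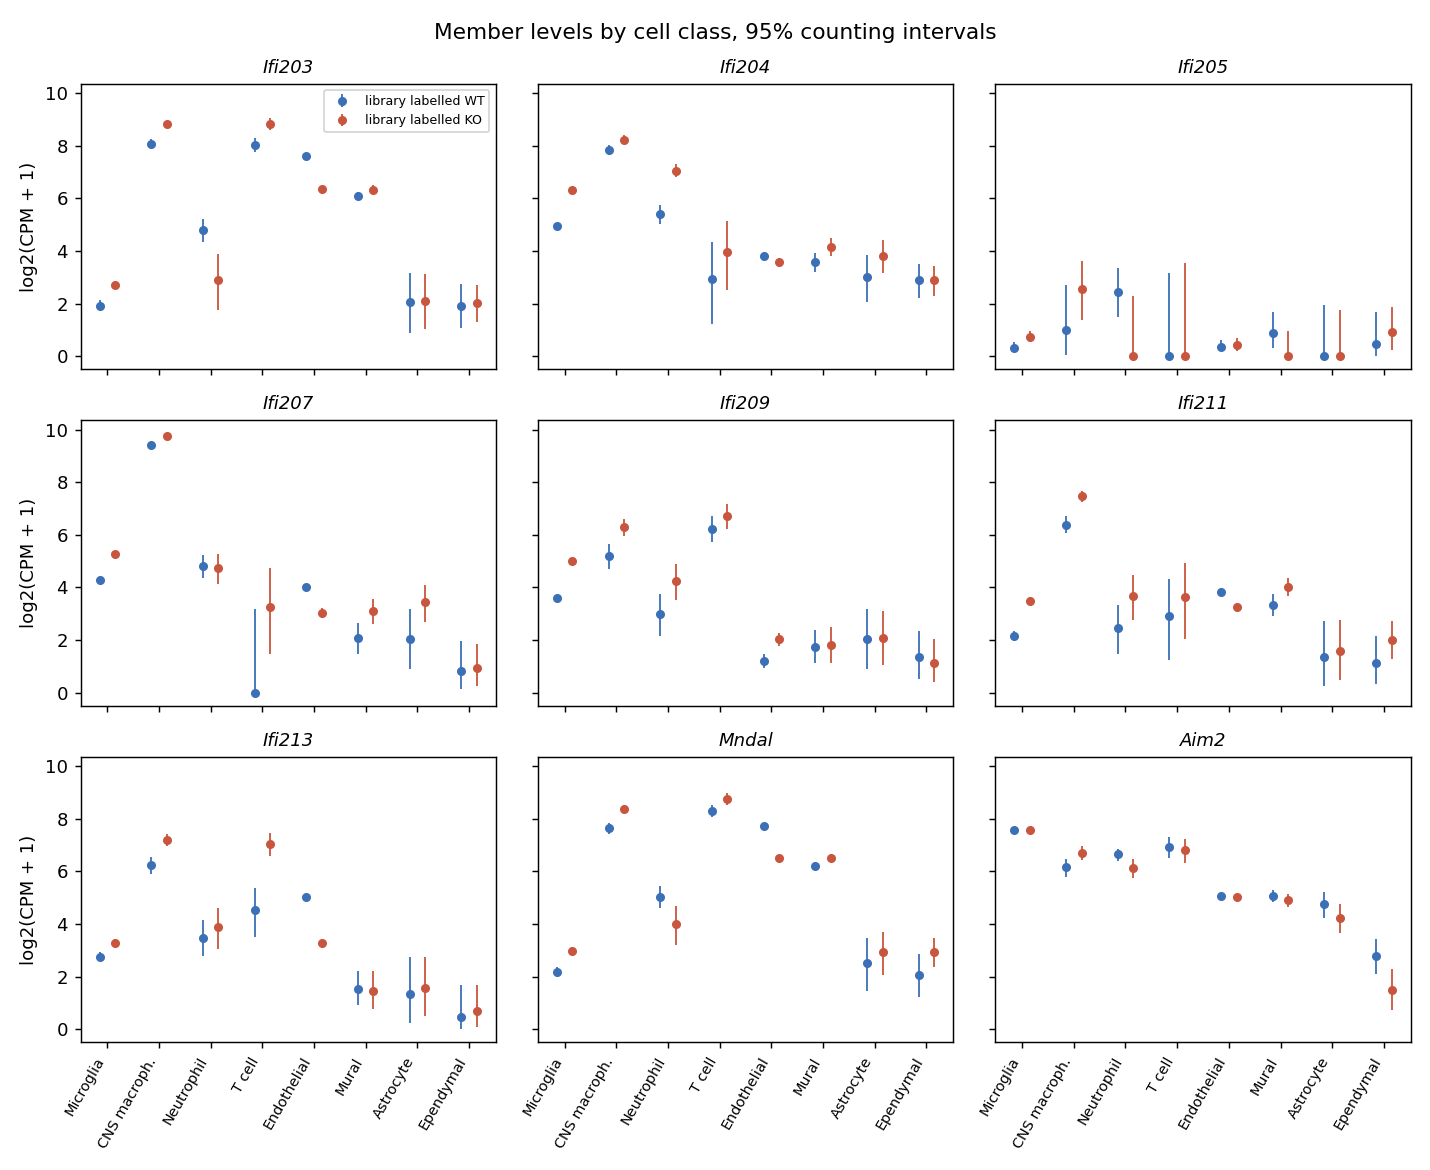
Level of each member as log2(CPM + 1) in 8 cell classes in the libraries labelled WT (blue) and KO (red); bars are 95% Poisson intervals and each class is one sum of UMIs per library. Aim2 was highest in microglia-like cells at 192 and 190.5 CPM, while Ifi203 and Mndal were low there and high in macrophage-like, T cell-like and endothelial-like cells.

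Thinning each cell to 1000 UMIs gave the same picture per cell. In the WT library 17.9% of microglia-like cells (exact binomial 95% interval 16.6 to 19.2) had an Aim2 UMI, against 17.7% of endothelial-like cells (16.4 to 19.1) with an Ifi203 UMI. Without thinning, these shares were 69.5% and 63.6%. Ependymal-like cells, taken as a class with little of the family, gave 0 of 128 cells for Aim2, with an exact interval reaching 2.84%, and 1 of 128 for Ifi203 after thinning. Their median depth was 10747 UMIs before thinning, and those of microglia-like and endothelial-like cells were 8085.5 and 6285 UMIs. Thinning left out 117 and 75 microglia-like and 183 and 171 endothelial-like cells that held fewer UMIs.

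Over the 16 values given by 8 classes and 2 libraries, the pattern of Ifi203 was most like that of Mndal (Pearson r = 0.993 on log2(CPM + 1)), followed by Use1 and Clec2d at 0.929 and 0.891. That of Ifi213 was most like Ifi206, another gene of the locus, at 0.948. Aim2 was most like Actr2 at 0.972, Ifi204 like Ftl1-ps1 at 0.958 and Lyz2 at 0.946, and Ifi207 like the macrophage genes Ccl12 at 0.957 and Stab1 at 0.956. Stab1 is one of the markers used to name the macrophage class. Ifi209 was most like Hist1h4c at 0.963 and Epsti1 at 0.959, Ifi211 like Adam33 at 0.905, and Ifi205 like Cxcl9 at 0.908. Ifi205 had at most 29 UMIs in any of the 16 values and 0 in several, so little is read from its correlation. Its 7 UMIs in WT neutrophil-like cells lay in 0.662% of those cells. These are descriptions over points that share 2 libraries, their depth and, for Ifi203 and Mndal, overlapping gene models.

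Between the libraries, 8 of the 9 members were at least 1.5-fold higher in KO microglia-like cells and 0 were lower. Among all 16110 genes with at least 20 UMIs in this class, 5.38% were higher by that rule and 6.13% lower. The members were picked with this contrast in view, so nothing is read from that difference. The median log2 ratio of the 9 members was 1.03, beside 0.01 over all genes.

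Ifi204, the family member tied to STING, had 1142 UMIs or 29.8 CPM (28.1 to 31.6) in WT microglia-like cells and 3431 UMIs or 79.7 CPM (77.0 to 82.4) in KO ones. The ratio of KO to WT was 2.67, with an exact interval of 2.50 to 2.86. The 2 intervals of the level did not overlap. After thinning, 2.16% of WT and 7.02% of KO microglia-like cells had an Ifi204 UMI. In ependymal-like cells these were 3 of 128 WT cells, or 2.34% (0.486 to 6.70), and 2 of 227 KO cells, or 0.881% (0.107 to 3.15). So few ependymal-like cells cannot tell the thinned WT share from background. As levels, ependymal-like cells had 6.35 CPM (3.63 to 10.3) and 6.36 CPM (3.94 to 9.72) of Ifi204, below microglia-like cells in both libraries. Unthinned, the microglial shares were 17.2% and 37.4% and the ependymal ones 6.72% and 4.55%.

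Ifi209 had 422 UMIs in WT and 1346 UMIs in KO microglia-like cells, a ratio of 2.84 (2.54 to 3.17). Ifi207 had 18.6 and 38.0 CPM, a ratio of 2.05 (1.87 to 2.24). Ifi211 had 3.42 and 10.3 CPM, a ratio of 3.02 (2.48 to 3.70). All 3 had more UMIs in the KO library, with intervals that did not overlap. Ifi203 had 107 and 240 UMIs and Mndal 136 and 296, so that both stayed under 7 CPM in either library. Their ratios were 2.00 (1.58 to 2.53) and 1.94 (1.58 to 2.39). Mndal, at 3.55 and 6.87 CPM, was near its 3.17 and 6.66 CPM in ependymal-like cells, the class with little of the family. Ifi203 had 2.79 and 5.57 CPM, against 2.78 and 3.03 CPM in ependymal-like cells. Mndal in both libraries and Ifi203 in WT thus cannot be told from the level of that class. Ifi205 had 9 and 29 UMIs, with a wide interval on its ratio of 2.87 (1.32 to 6.89). Ifi213 lay just inside the 1.5-fold threshold, at 5.79 and 8.73 CPM and a ratio of 1.51 (1.27 to 1.79).

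Aim2 was the exception. Its 7346 and 8201 UMIs gave a ratio of 0.994 (0.963 to 1.03) in microglia-like cells, where it is the best measured member. Summed over the 9 members the ratio was 1.39 (1.36 to 1.43), and 2.41 (2.31 to 2.52) without Aim2. The same fold was passed by the 3 other PYHIN genes with enough UMIs: Ifi206 had 115 and 432 UMIs, Ifi208 12 and 29, and Ifi214 16 and 45. The class rule weighed on the smaller members: with a marker share of at least 0.9 just Ifi204, Ifi209 and Aim2 kept 20 UMIs and 2 were called higher, and with 10 CPM added to each level 4 were.

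In endothelial-like cells, 5 of the 8 members with at least 20 UMIs were at least 1.5-fold lower in the KO library, and 1 was higher. Among all 15697 genes tested there, 4.12% were lower and 7.36% higher by the same rule. This contrast too was known when the members were chosen. The median log2 ratio of the 8 members was -0.87, beside 0.03 over all genes. The 5 lower members were Ifi203, Mndal, Ifi213, Ifi207 and Ifi211, each of which was higher in KO microglia-like cells.

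Ifi203 had 6069 UMIs or 196 CPM in WT endothelial-like cells and 2188 UMIs or 81.0 CPM (77.6 to 84.4) in KO ones, a ratio of 0.413 (0.393 to 0.434). Mndal had 6460 and 2409 UMIs, or 209 and 89.1 CPM (85.6 to 92.8), a ratio of 0.427 (0.408 to 0.448). Ifi213 had 982 and 235 UMIs, or 31.7 and 8.70 CPM, a ratio of 0.274 (0.237 to 0.317). None of these intervals of the level overlapped between the libraries, and each stayed above the level of the ependymal-like class. The share of thinned endothelial-like cells with a UMI went from 17.7% to 7.36% for Ifi203 and from 577 of 3200 to 241 of 3099 cells for Mndal, against at most 1 cell of 128 and 1 of 227 in ependymal-like cells. Unthinned, these shares were 63.6% and 30.7% for Ifi203.

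The smaller members divided. Ifi207 had 15.2 and 7.14 CPM, a ratio of 0.471 (0.396 to 0.558), and Ifi211 had 13.3 and 8.51 CPM, a ratio of 0.640 (0.542 to 0.754). Ifi204 was within the fold at 13.2 and 10.8 CPM, a ratio of 0.820 (0.703 to 0.956). Ifi209 alone was higher, from 40 to 83 UMIs, with a ratio of 2.38 (1.61 to 3.56). Aim2 again differed little, at 32.2 CPM (30.2 to 34.2) and 31.8 CPM (29.7 to 33.9) and a ratio of 0.987. Ifi205 had 9 UMIs in each library and was not compared. Of the other PYHIN genes, Ifi206 had 430 and 113 UMIs and Ifi208 394 and 147, both past the fold in the lower direction. Summed over the 9 members the level was 512 CPM in WT and 240.4 CPM in KO, a ratio of 0.470 (0.457 to 0.484).

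**Figure D2:**
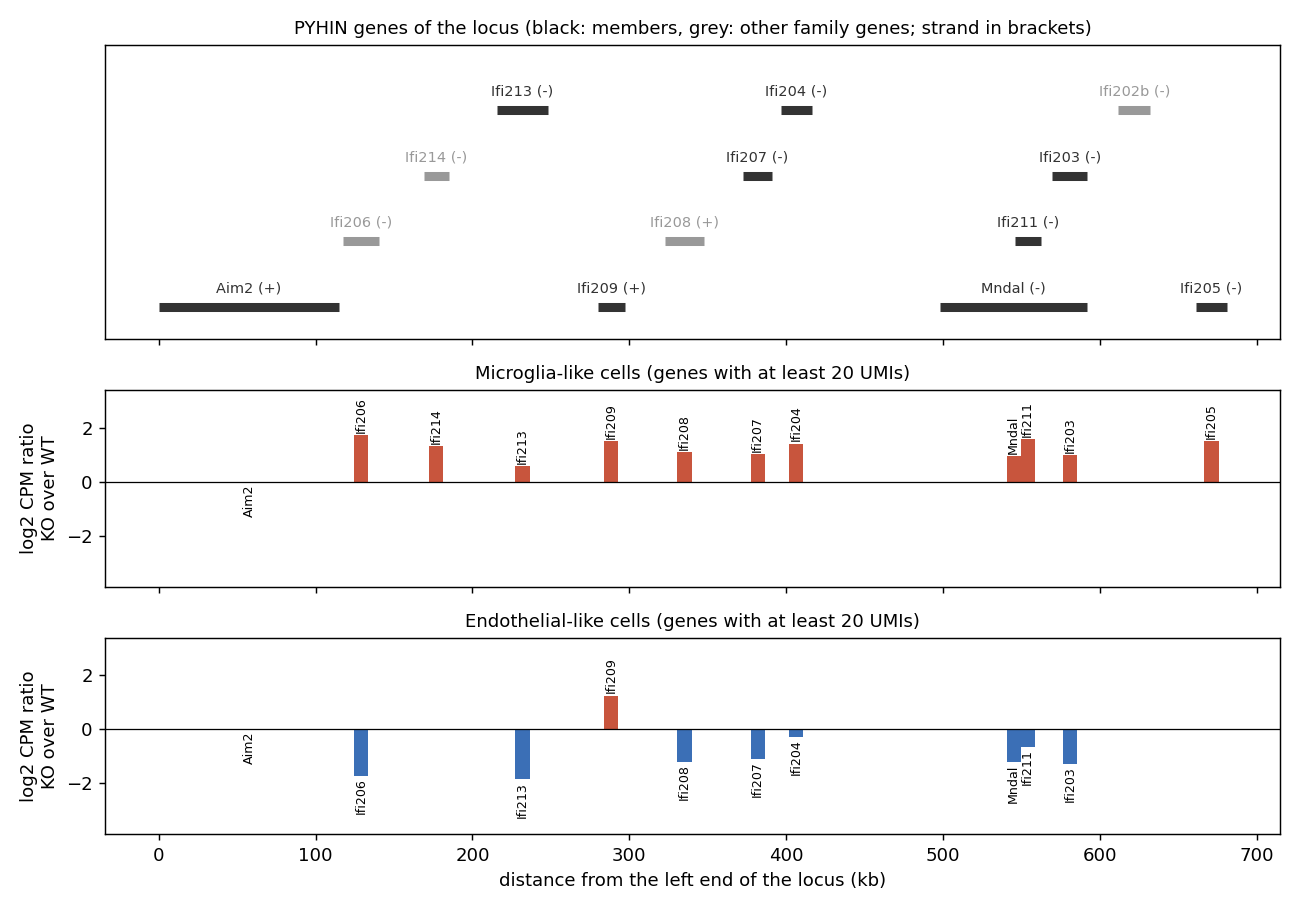
Top, the 13 PYHIN genes of the locus by distance in kb from its left end, drawn to scale with their strand. Below, bars give the log2 ratio of CPM in KO over WT for genes with at least 20 UMIs; in microglia-like cells all genes but Aim2 lie above 0, and in endothelial-like cells all genes but Ifi209 lie at or below it.

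Among 10442 genes with at least 300 UMIs over both libraries in endothelial-like cells, Ifi213 had the 7th lowest ratio, Ifi206 the 8th, Ifi203 the 14th, Mndal the 15th, Ifi208 the 16th and Ifi207 the 22nd. Ifi211 was at rank 72, Ifi204 at 449 and Aim2 at 3808. Because the members were chosen with this contrast known, their ranks are a description only. The other genes around the locus did not move as a block. Of 40 genes annotated within 1 Mb of the outermost members, 11 had enough UMIs in endothelial-like cells, and only Cadm3 was lower and only Fmn2 higher by the fold. In microglia-like cells 10 were measured, of which Fmn2 was higher and 0 were lower.

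The lower endothelial values were looked at within subsets of the class, all chosen after the values were seen. Cells were split into zones by capillary, arterial and venous marker genes. In capillary cells (1752 and 1809) Ifi203 had 210.4 and 73.1 CPM, a ratio of 0.347 (0.323 to 0.373). In arterial cells (756 and 637) it had 208 and 113 CPM, a ratio of 0.545 (0.492 to 0.604). In venous cells (122 and 102) it had 127 and 54.3 CPM, a ratio of 0.428 (0.340 to 0.536). Ifi203 was thus lower in KO cells of each zone, with arterial cells nearest to 1. Ifi213 had ratios of 0.200, 0.578 and 0.384 and Mndal of 0.338, 0.671 and 0.345 in the same order. Ifi207 was lower in capillary cells, at 0.358 (0.283 to 0.450), while its arterial ratio was 0.979 (0.602 to 1.57).

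The class was also split by depth. Ifi203 had ratios of 0.376, 0.345 and 0.444 in endothelial-like cells with under 4000, 4000 to 8000 and at least 8000 UMIs, and Mndal and Ifi213 were below 0.5 in each group. In cells under 4000 UMIs Ifi207 and Ifi211 were near 1, at 0.884 (0.478 to 1.66) and 0.911 (0.517 to 1.63). These rest on 20 and 27 UMIs for Ifi207 and 23 and 32 UMIs for Ifi211. Both intervals overlap those in cells with at least 8000 UMIs, 0.379 to 0.577 and 0.495 to 0.742, so a change with depth is not shown. Markers of platelets and red cells also differed between the libraries in this class, with a summed platelet list of 46.1 and 9.55 CPM and an erythroid list of 40.3 and 10.8 CPM. In cells without any UMI of either list the ratio was 0.414 for Ifi203, 0.422 for Mndal and 0.281 for Ifi213, as large as in the whole class. Mural markers in the class summed to 585 and 865 CPM, and all 10 were detected in both libraries. Their part in the result was not tested.

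**Figure D3:**
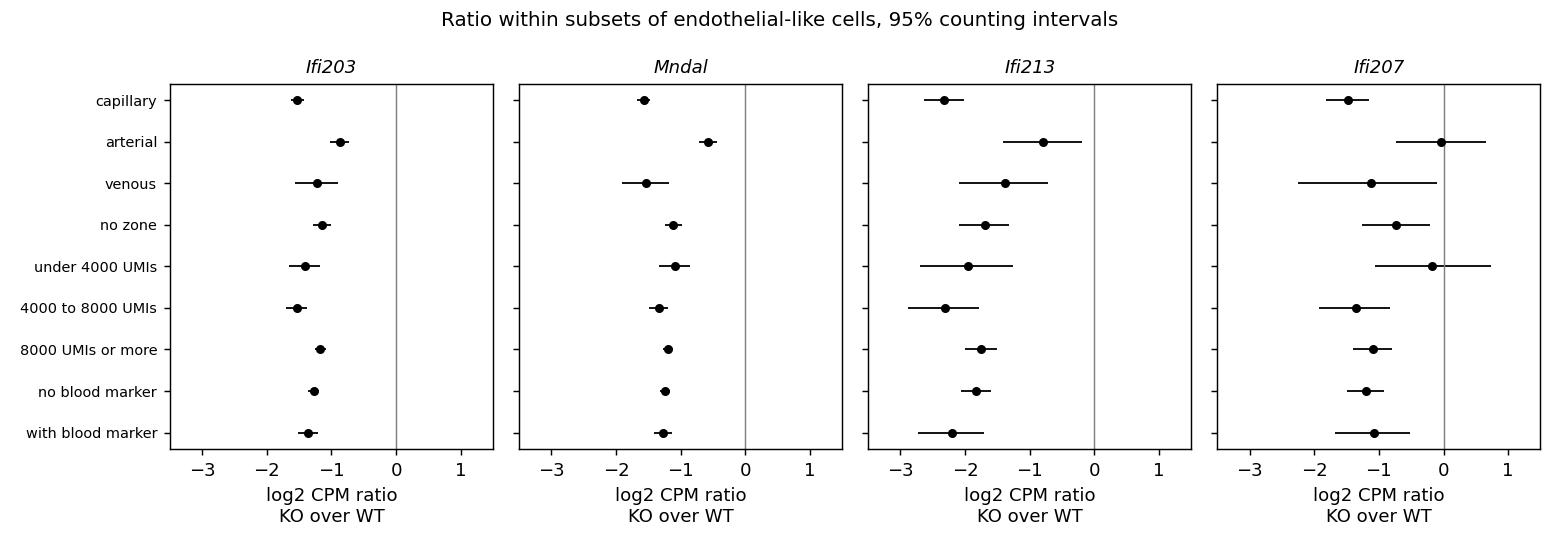
Log2 ratio of CPM in KO over WT for Ifi203, Mndal, Ifi213 and Ifi207 in subsets of endothelial-like cells by zone, by UMIs per cell and by presence of a platelet or erythroid marker UMI (blood marker); bars are 95% exact intervals for counting error. Ifi203, Mndal and Ifi213 lie below 0 in all 9 subsets, with arterial cells closest to 0.

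The remaining classes were smaller and did not all go one way. In macrophage-like cells 5 of 8 measured members were higher in the KO library and 0 lower, where 9.57% and 9% of 8568 genes were. Ifi203 had 267 and 450 CPM there, Mndal 197 and 332, Ifi211 83.0 and 176, Ifi213 74.0 and 145, and Ifi209 36.0 and 77.3 CPM. Ifi207 and Ifi204, already high, had ratios of 1.30 (1.17 to 1.43) and 1.31 (1.10 to 1.56). Aim2 lay just outside the threshold at 1.48 (1.09 to 2.03). Microglial markers in this class summed to 1156 and 1069 CPM and its own markers to 11165 and 10913 CPM.

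In T cell-like cells 2 of 5 measured members were higher and 0 lower, beside 14.2% and 12.5% of 5356 genes. Ifi213 had 10 and 45 UMIs, or 21.9 and 130 CPM, a ratio of 5.96 (2.96 to 13.2), and Ifi203 had 258 and 449 CPM, a ratio of 1.74 (1.36 to 2.23). Mndal was within the fold, at 1.37 (1.08 to 1.73). These sums come from 69 and 79 cells, and a few cells can shift them.

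Mural cells, the pericytes and smooth muscle around the same vessels, did not share the endothelial pattern. In mural-like cells Ifi203 had 317 UMIs in each library and a ratio of 1.18 (1.01 to 1.38), and Mndal 344 and 359 UMIs and 1.23 (1.06 to 1.43). Of 7 measured members 3 were higher, namely Ifi207, Ifi211 and Ifi204, and 0 lower, beside 5.71% and 4.8% of 12638 genes. Their UMIs were few, at 15 and 30, 43 and 61, and 51 and 67.

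In neutrophil-like cells 2 of 7 were higher and 2 lower, beside 11.9% and 17.3% of 9110 genes. Ifi204 had 40.8 and 132 CPM, a ratio of 3.23 (2.37 to 4.44), and Ifi209 11 and 17 UMIs. Microglial markers in this class summed to 2770 and 2978 CPM and monocyte markers to 1185 and 2005 CPM, with all 8 of each list detected in both libraries. Choroid plexus markers summed to 23.6 and 266 CPM. Ifi203 had 42 and 6 UMIs, a ratio of 0.238 (0.0828 to 0.563), and Mndal 50 and 14, a ratio of 0.467 (0.238 to 0.858). The WT UMIs lay in few cells: 9.27% of WT and 7.23% of KO cells had an Ifi203 UMI and 7.28% and 10.8% a Mndal UMI, so the lower sums are not read as a lower level in these cells. Endothelial markers, also lower in this class in the KO library, summed to 1073 and 888 CPM with all 10 detected, and the part of these marker sets in the values of this class was not tested. Astrocyte-like and ependymal-like cells held between 57 and 88 UMIs of all members together in a library. Of 2 measured members in astrocyte-like cells 1 was higher (Ifi204, 9 and 20 UMIs) and 0 lower, beside 9.46% and 7.53% of 10880 genes. Of 3 in ependymal-like cells 1 was higher (Mndal, 8 and 22 UMIs) and 1 lower (Aim2, 15 and 6 UMIs), beside 5.55% and 4.89% of 12873 genes.

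**Figure D4:**
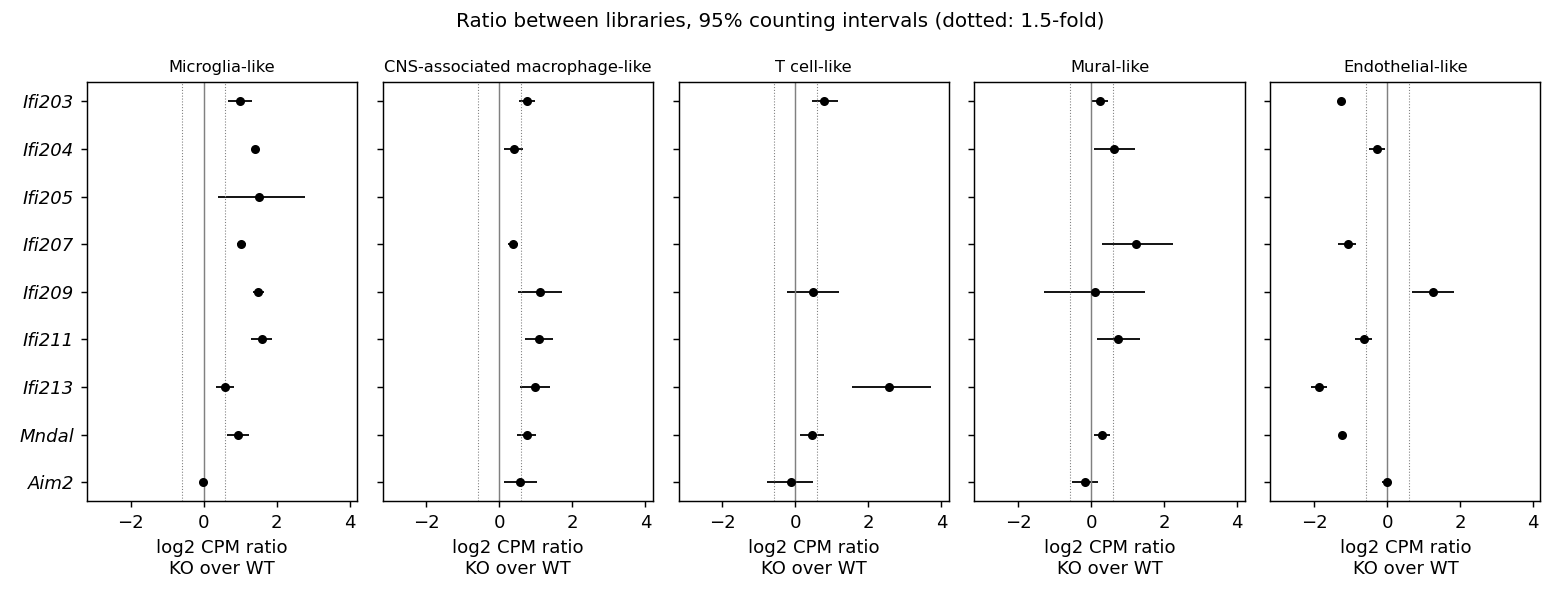
Log2 ratio of CPM in KO over WT for members with at least 20 UMIs in 5 classes; bars are 95% exact intervals for counting error and dotted lines mark 1.5-fold. Ifi203, Mndal, Ifi213, Ifi207 and Ifi211 lie to the right of 0 in microglia-like cells and to the left in endothelial-like cells.

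Sums over all kept cells combine the classes and so also depend on their make-up. Endothelial-like cells held 26.1% of all WT and 21.8% of all KO UMIs, and microglia-like cells 32.3% and 34.8%. The part of make-up in the values below was not tested. The 9 members summed to 383.1 CPM in WT and 383.4 CPM in KO, a ratio of 1.00 (0.988 to 1.01). Of the 9, Ifi204 (ratio 2.06), Ifi209 (2.55) and Ifi205 (1.57) were higher and Ifi203 (0.630) and Mndal (0.625) lower, beside 5.55% and 6.64% of 20503 genes. With each cell thinned to 1000 UMIs, which weights cells equally, 0 members were lower, and Ifi203 and Mndal stood at 0.768 and 0.764.

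The interferon-response list, 23 genes such as Isg15 and Irf7 with no member among them, served to place the members beside the response the family is known for. The list was chosen with earlier results of these data known, so its counts are a description. All 23 were higher in KO microglia-like cells, beside 5.38% of all genes, with a median log2 ratio of 1.93. All 23 were also higher in KO endothelial-like cells, beside 7.36% of all genes, with a median of 1.36. The list and the members thus differed in the same direction in microglia-like cells, apart from Aim2, and mostly in opposite directions in endothelial-like cells. In macrophage-like cells all 23 were higher as well, beside 9.57% of all genes, with a median of 1.14.

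To see this within a library, cells were grouped by their UMIs of the interferon list in 1000 UMIs, while levels used all UMIs of the cells. In WT microglia-like cells Ifi204 went from 20.1 CPM in the 1801 cells with 0 such UMIs through 26.0 and 46.2 to 191 CPM (165 to 220) in the 84 cells with 4 or more. In KO cells it went from 53.5 CPM in 540 cells through 66.6 and 75.1 to 115 CPM (108 to 122) in 846 cells. The level was higher with more interferon UMIs in both libraries, and the library with the higher level changed from KO in the first 3 groups to WT in the last. Ifi209 had 7.88 and 75.1 CPM in the first and last WT groups and 23.7 and 44.5 CPM in the KO ones. Ifi213 reached 39.0 CPM (27.9 to 53.1) in the last WT group and 16.0 CPM (13.6 to 18.7) in the last KO group. Aim2 stayed between 186 and 207 CPM in all 8 groups.

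In WT endothelial-like cells Ifi203, Mndal, Ifi213, Ifi204, Ifi207 and Ifi211 were highest in the group with most interferon UMIs. The share of all genes that were highest in that group was not counted, so this is a description. Ifi203 had 168, 169, 199 and 325 CPM (307 to 344) from the group with 0 to that with 4 or more, and Mndal 163, 192, 211 and 359 CPM. Ifi213 had 23.9 CPM in the first and 63.5 CPM in the last group, and Ifi204 7.71 and 34.3 CPM. Aim2 stood at 30.9, 34.4, 30.5 and 32.4 CPM, and Ifi209 and Ifi205 were at most 1.63 CPM in any group. In KO endothelial-like cells Ifi203 had 59.0, 97.3, 73.8 and 82.5 CPM, and Ifi213 9.32, 8.36, 7.90 and 8.96 CPM, without the order seen in WT cells. Ifi209, the member that was higher in this class, had 0, 1.52, 2.92 and 3.14 CPM there. The group with 4 or more held 13.2% of the WT and 68.8% of the KO endothelial-like cells, and the KO group with 0 only 60 cells. Within the last group Ifi203 was thus at 325 CPM in 423 WT cells and 82.5 CPM in 2131 KO cells. A fixed number of interferon UMIs does not mark the same cells in both libraries.

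**Figure D5:**
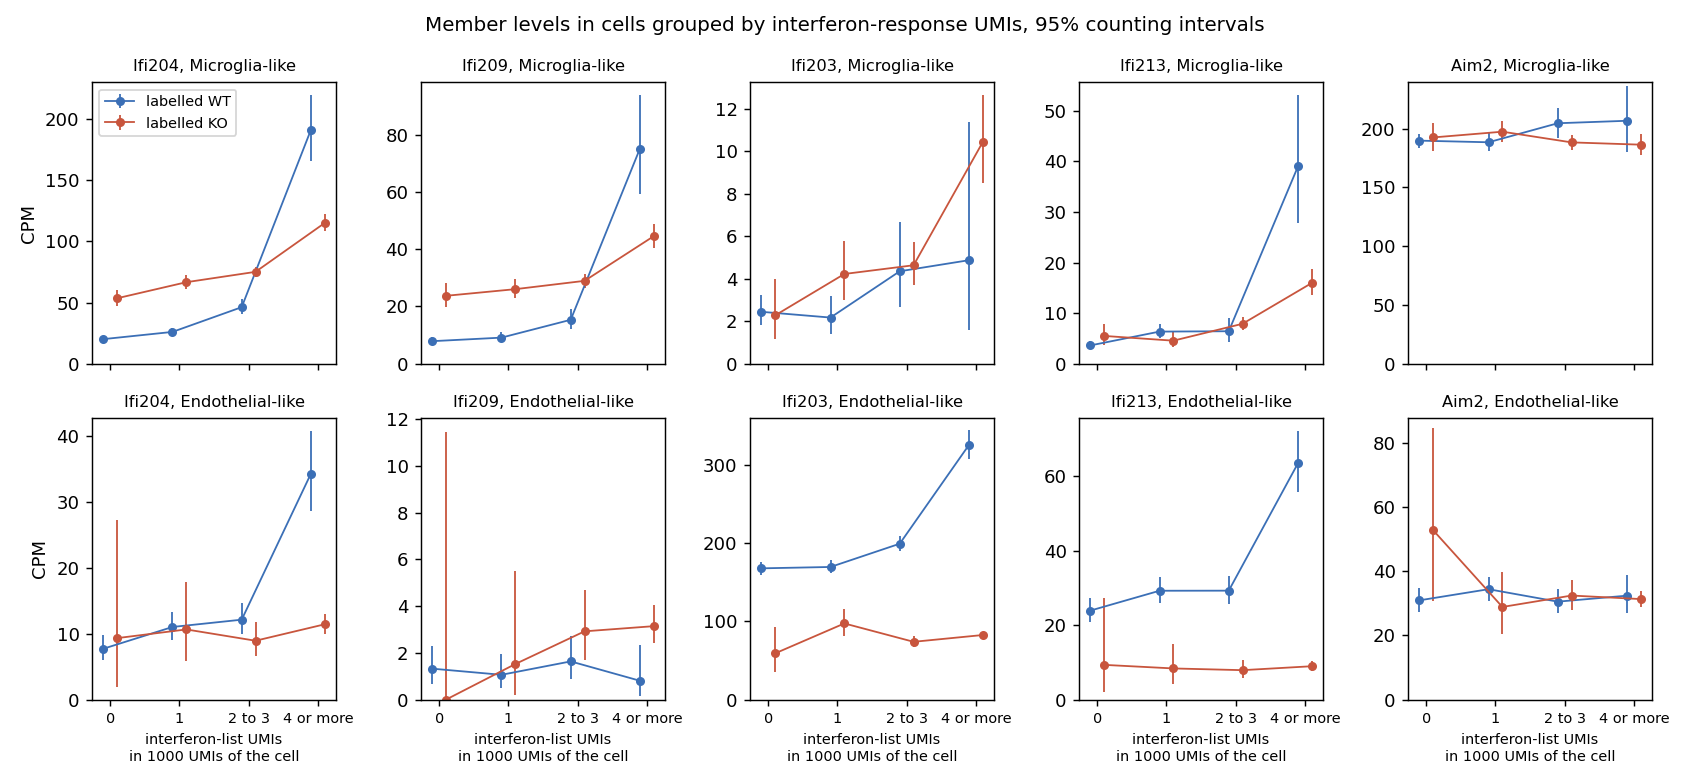
CPM of 5 members in microglia-like (top) and endothelial-like (bottom) cells grouped by UMIs of the interferon-response list in 1000 UMIs; bars are 95% Poisson intervals, blue is WT and red KO, and vertical scales differ. In WT endothelial-like cells Ifi203 goes from 168 to 325 CPM, while in KO cells it stays between 59.0 and 97.3 CPM.

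Genes that act with the PYHIN sensors were compared in the same 2 classes. Of 13 measured inflammasome genes, 0 passed the fold in either direction in microglia-like cells and 0 in endothelial-like cells, with median log2 ratios of 0.06 and 0.10. Pycard, the AIM2 adaptor, had 267 and 299 CPM in microglia-like cells, and Casp1, the caspase it recruits, 35.0 and 40.9 CPM. Of 12 measured genes of cGAS-STING signalling and DNA handling, 0 passed it in microglia-like cells and 1 in endothelial-like cells. That gene, named after its values were seen, was Cgas, the cytosolic DNA sensor, with 138 and 192 UMIs and a ratio of 1.59. Tmem173, which encodes STING, had 143 CPM in both libraries in microglia-like cells. Cgas lay just under the fold in microglia-like cells, at 22.4 and 33.3 CPM and a ratio of 1.48 (1.36 to 1.62). In KO neutrophil-like cells 5 of 12 measured inflammasome genes were lower and 0 higher, beside 17.3% and 11.9% of all 9110 genes. In astrocyte-like cells 3 of 8 were higher and 0 lower, beside 9.46% and 7.53% of 10880 genes. In macrophage-like cells 1 of 12 was lower, near the share of 9% of all 8568 genes, so nothing is read from that count. The gene lower in macrophage-like cells, named after its values were seen, was Il1b, a cytokine matured by caspase-1. It had 97 and 33 UMIs and a ratio of 0.333 (0.217 to 0.499).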

How the data were processed

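Each deposited matrix holds UMI counts as the authors obtained them, not normalized; per the file headers they came from Cell Ranger 7.0.1. The submitters' processing notes also name STAR, Seurat 3.1.1 and GRCm38/mm10. The annotation release is not given in the sources used here. Barcodes under 300 genes or 500 UMIs, or over 10% mitochondrial UMIs, were dropped. Doublets were not called, but the marker share rule drops cells with mixed markers. Sums of UMIs were taken by class within each library. Of 17 classes, the 8 that had 50 or more cells on both sides were compared. With 1 library per group no test was possible. Levels have exact Poisson intervals, ratios exact conditional binomial intervals and shares Clopper-Pearson intervals, all 95% and for counting error only. Called means a ratio of at least 1.5 in either direction among genes with at least 20 UMIs.

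All members are named. Also named are the most alike genes by correlation, from the 3 highest per member, listed genes past the fold in microglia-like cells, and such neighbours within 1 Mb. The members and lists were chosen with earlier results of these data known. The ratio script was tested on simulated data. Python 3.11.15, numpy 2.4.6, scipy 1.17.1, pandas 2.3.3 and matplotlib 3.10.9 were used. Of the alternatives, 12 were planned, and 2 were added after the data were seen.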

Additional observations from a re-analysis of the deposited data

Results flagged for a closer look

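The 5 members that were lower in KO endothelial-like cells were all higher in KO microglia-like cells. The log2 ratio in microglia-like cells exceeded that in endothelial-like cells by 2.46 for Ifi213, 2.27 for Ifi203, 2.24 for Ifi211, 2.18 for Mndal and 2.12 for Ifi207. With 1 library per group the difference was not tested, and the members were chosen because they had been seen to go opposite ways. In microglia-like cells Mndal in both libraries and Ifi203 in WT were near the level of ependymal-like cells.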

How the results depend on the processing

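No paired analysis was possible because each group has 1 library. Member ratios were recomputed under each alternative: of 90 values in microglia-like cells 74 stayed within the counting interval of the main value, of 86 in endothelial-like cells 69, and of 99 in all cells 80, and 0 called values reversed. Ifi204 in endothelial-like cells, which was within the fold, ranged from 0.660 to 1.06. A marker share of at least 0.5 gave a summed ratio of 0.525 in endothelial-like cells. A share of at least 0.9 gave summed ratios of 0.429 there and 1.18 in microglia-like cells, with 0 members higher in the former, where Ifi209 no longer had enough UMIs, and 2 in the latter. That share also gave 6 lower members in endothelial-like cells, with Ifi204 at 0.660 and Aim2 at 1.32. Scaling by the median ratio gave 7 higher members in microglia-like cells, as did a minimum of 50 UMIs. With 10 CPM added, 4 members were higher in microglia-like cells, 0 higher and 3 lower in endothelial-like cells, and 1 lower over all cells. With cells thinned to 1000 UMIs, 5 members were higher in microglia-like cells (summed ratio 1.32), 0 higher in endothelial-like cells, and over all cells 5 higher and 0 lower (summed ratio 1.08). A lower fold threshold gave 5 higher over all cells, and a fold of 2 gave 5 higher in microglia-like cells and 0 lower over all cells. Leaving out cells with a platelet or erythroid marker UMI, an alternative chosen after seeing the data, gave 1 lower and a summed ratio of 0.979 over all cells. In microglia-like cells it gave 6 higher members. Thinning and a higher share leave fewer UMIs per member, and a larger fold or added CPM lowers counts by construction. Ifi205, and Ifi203 and Mndal in microglia-like cells, rest on few UMIs. Spread between mice cannot be seen with 1 library per group.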

Other observations

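Monocyte-like cells, at 18 and 48 cells, and B cell-like cells, at 101 and 48, fell under the limit of 50 cells per library and are given as values. In monocyte-like cells Ifi205 had 0 UMIs in the WT library and 46 in the KO library. Ifi204 had 15 and 146 UMIs there, or 110 and 408 CPM, and Ifi209 15 and 149 UMIs, or 110 and 417 CPM. Ifi203 had 5 and 116 UMIs, Ifi211 4 and 117, and Ifi213 2 and 72, while Aim2 had 13 and 37 UMIs, or 95.5 and 103 CPM. The WT sums rest on 136130 UMIs and the KO sums on 357533, and the cells differed in markers too: their own monocyte markers summed to 6597 and 13383 CPM, those of CNS-associated macrophages to 455 and 951 CPM, of microglia to 154 and 464 CPM and of dendritic cells to 7.35 and 69.9 CPM. In B cell-like cells Ifi203 had 245 and 232 CPM and Mndal 351 and 348 CPM, close to each other, Ifi209 had 120 and 143 CPM and Aim2 125 and 77.3 CPM, while Ifi213 had 20 and 39 UMIs, or 35.3 and 151 CPM.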
